A study of Mus musculus with 2 samples.

Results

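The genes described here encode the voltage-gated sodium channels, the voltage-gated calcium channels and the pacemaker channels of the mouse, and the value read at each is the histone mark H3K27me3 in sciatic nerve. They were taken by gene symbol: the sodium channel pore (Scn, ending in a) and beta (Scn, ending in b) subunits, the calcium channel pore (Cacna1), alpha2delta (Cacna2d), beta (Cacnb) and gamma (Cacng) subunits, and the Hcn pacemaker channels. This gave 44 genes among the 21887 protein-coding genes that RefSeq places on chromosomes with peaks (GRCm38.p6, which is mm10). The series held 1 H3K27me3 ChIP library and 1 input library of sonicated chromatin, both from the sciatic nerve of male mice of strain C57/BL6 at 8 weeks of age, with no genetic change or treatment named in the labels. How many animals went into each library was not stated in the sources read, and the nerve was not sorted by cell type as far as the labels say. The measurement was a list of 6018 peaks from the ChIP library, each with a position and a score. Scores were read as whole reads, an inference from their even spacing, so that the weakest peaks of the list held 10 reads. With 1 ChIP library there was no replicate, no test between samples was possible, and all intervals are for counting error only.

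H3K27me3 is written on nucleosomes by Polycomb repressive complex 2 and is found at genes that a cell type keeps silent, often at CpG-rich starts of developmental and neuronal genes. Voltage-gated sodium channels carry the upstroke of the action potential, voltage-gated calcium channels couple depolarisation to calcium entry, and Hcn channels open on hyperpolarisation and set rhythmic firing in heart and neurons. In a peripheral nerve the sodium channels of axons sit at nodes of Ranvier, but the nuclei that hold these genes in chromatin are those of Schwann cells, fibroblasts, vessel and immune cells, because the neurons' nuclei lie in ganglia and spinal cord outside the nerve.

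Of the 44 channel genes, 23 had at least 1 H3K27me3 peak in the gene or the 2 kb on either side (52.3%, exact 95% interval 36.7 to 67.5), while 10.5% of all protein-coding genes did by the same rule. A gene with such a peak is called marked. The 23 marked genes held 50 peaks with 1115 reads (exact 95% Poisson interval 1051 to 1182), which was 0.602% of the reads in all peaks, and no peak was shared by any pair of them. Of the 44 genes, 41 are described by name below, and 21 of these were marked. Marked genes were found in all 7 families: 2 of 9 sodium channel pore genes described, 2 of 3 sodium channel beta genes, 7 of 10 Cacna1 genes, 3 of 4 Cacna2d genes, 1 of 4 Cacnb genes, 4 of 8 Cacng genes and 2 of 3 Hcn genes. With so few genes in a family the exact intervals were wide, 2.81% to 60% for the sodium channel pores and 34.8% to 93.3% for Cacna1, and they overlapped. Cacna1e held 137 reads, Cacna2d3 88, Cacna1i 87 and Hcn4 79. The median marked channel gene had 28 reads (quartiles 23 and 64), close to the 26 reads of the median marked protein-coding gene (quartiles 13 and 65). The file holds peaks and no expression, so the tissue label could be looked at only through the mark. Of 9 Schwann cell markers 4 were marked, none with more than the 18 reads of Egr2, and Pmp22, Mag and Prx had no peak. Of 9 markers of neuron cell bodies 7 were marked, up to the 418 reads of Pou4f1, and 5 of the 9 held at least 20 reads. The only Tubb3 peak also lay within 2 kb of an end of Mc1r, and 1 Rbfox3 peak within 2 kb of an end of Engase. Of 6 muscle and heart markers only Acta1 was marked, with 79 reads in 3 peaks. Of these 3 peaks, 2 also lay within 2 kb of an end of the neighbouring gene Nup133.

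**Figure D1:**
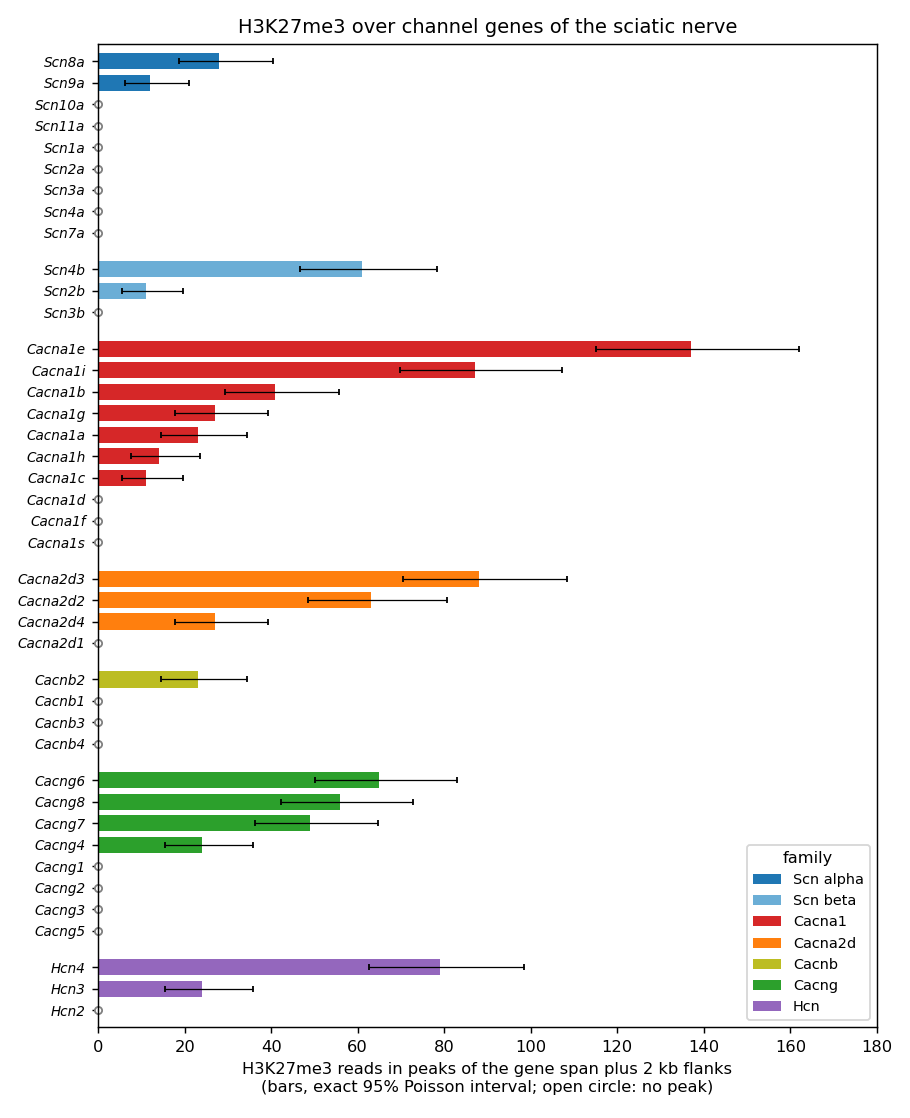
H3K27me3 reads (x axis) in the peaks of each of the 41 channel genes described (y axis) and its 2 kb flanks, grouped by family, with exact 95% Poisson intervals; open circles are genes with no peak. Cacna1e (137 reads) stands highest of the genes drawn, and 20 of them have no peak.

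Of the 9 sodium channel pore genes described, Scn8a and Scn9a carried the mark, each in peaks of fewer than 20 reads. Scn8a, the main sodium channel of mature nodes of Ranvier, had 28 reads in 2 peaks. The peak of 18 reads (chromosome 15, 100871154 to 100871880) began 509 bp downstream of a listed start, and the other, of 10 reads, lay 103.9 kb beyond the nearest listed start. Scn9a, a channel of pain-sensing and sympathetic neurons, had 1 peak of the shortest width, 500 bp, with 12 reads (6.201 to 20.96) over its listed start. That peak also lay within 2 kb of the annotated end of the long non-coding RNA gene Gm35265.

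Unmarked were Scn1a, Scn2a and Scn3a of central neurons, Scn4a of skeletal muscle, Scn10a and Scn11a of pain-sensing neurons, and Scn7a, which encodes a sodium-sensing channel also made by glia. The nearest peak to Scn7a lay 38.2 kb away and was that of Scn9a, and the nearest to Scn10a lay 28.9 kb away. For the others the distance was 146.8 kb (Scn1a), 174.2 kb (Scn11a), 296.6 kb (Scn4a), 356.1 kb (Scn2a) and 555.9 kb (Scn3a).

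The sodium channel beta subunits are single-pass membrane proteins that modify gating and bind adhesion molecules. Scn4b had 3 peaks with 61 reads covering 13.8% of the gene. Its strongest peak, 1108 bp with 31 reads (chromosome 9, 45138282 to 45139389), lay over the listed start, and the other Scn4b peaks, of 10 and 20 reads, lay 2.8 and 6.8 kb downstream. The neighbouring gene Scn2b had a single peak of 500 bp and 11 reads, which began 524 bp downstream of its start. Scn3b was the unmarked gene nearest to the 2 kb limit, with a peak 2879 bp from its annotated end, and counted as marked with flanks of 5 kb. No marked gene rested on its flanks alone, since all 23 stayed marked with no flank.

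Of the calcium channel pore genes, all 3 of the P/Q, N and R types and all 3 of the T type were marked, against 1 of 4 of the L type; no difference between types was tested. With peaks of at least 20 reads the counts were 2 of 3, 1 of 3 and 0 of 4, and 5.46% of all protein-coding genes had such a peak. These genes are 28.1 to 610.1 kb long, and of all protein-coding genes 10.3% were marked at 20 to 100 kb, 17.6% at 100 to 300 kb and 36.8% above 300 kb. Cacna1e, the R-type pore of neurons, carried the widest and strongest single peak of any channel gene, 4715 bp with 105 reads (exact 95% interval 85.88 to 127.1; chromosome 1, 154723365 to 154728079). It lay over the listed start, which is well inside the annotated span of 493980 bp. The other Cacna1e peaks held 10, 10 and 12 reads and lay upstream of that start, the one of 12 reads across the annotated upper end. Both peaks of 10 reads lay within 2 kb of an annotated end of the long non-coding RNA gene Gm51649. Cacna1i, a T-type pore of thalamic and other neurons, had a peak of 3582 bp and 65 reads over its start (chromosome 15, 80286204 to 80289785) and peaks of 10 and 12 reads 31.5 and 39.7 kb downstream. An annotated end of the long non-coding RNA gene Gm31319 lay within 2 kb of the first. Cacna1b, the N-type pore of presynaptic terminals and the target of omega-conotoxin, had 1 peak of 1843 bp and 41 reads over its start (chromosome 2, 24761977 to 24763819).

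The rest of the marked pore genes held fewer reads. Cacna1g (T type) had peaks of 16 and 11 reads, the first 525 bp inside its upper annotated end. Cacna1a, the P/Q-type pore of most central synapses, had peaks of 12 and 11 reads, both more than 10 kb from either annotated end. Cacna1h, the T-type pore of sensory neurons, had 14 reads in 1 peak 1952 bp from its upper end. Cacna1c, the L-type pore of heart and smooth muscle, had 11 reads in 1 peak 573 bp downstream of the second of its 3 listed starts. The unmarked L-type genes were Cacna1d of endocrine cells and the sinoatrial node (nearest peak 85.3 kb away), Cacna1s of skeletal muscle (113.6 kb) and the X-linked Cacna1f of the retina (29495.1 kb). The X chromosome held 31 of the 6018 peaks, and 1.55% of its protein-coding genes were marked.

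The 300 bases at the listed starts of these genes, 250 before the start and 50 after, are given for the marked pore genes with the most reads in peaks over that window, so that the base composition under the mark can be seen. They are RefSeq sequences of GRCm38.p6, read 5′ to 3′ on the strand of the gene, with each CpG in capitals. The Cacna1e window (chr1:154725871-154726170, minus strand) lay under the peak of 105 reads and held 11 CpGs with a GC content of 55.3%. The Cacna1i window (chr15:80286988-80287287, plus strand), under the peak of 65 reads, held 23 CpGs at 62.7% GC, and the Cacna1b window (chr2:24763103-24763402, minus strand), under that of 41 reads, 35 CpGs at 72.3% GC.
Cacna1e: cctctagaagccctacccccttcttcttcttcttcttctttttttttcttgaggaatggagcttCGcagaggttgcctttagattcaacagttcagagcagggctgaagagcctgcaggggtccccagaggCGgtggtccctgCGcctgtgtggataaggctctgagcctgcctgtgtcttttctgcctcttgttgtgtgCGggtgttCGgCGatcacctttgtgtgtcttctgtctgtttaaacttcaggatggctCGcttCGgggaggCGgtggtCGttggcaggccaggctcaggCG
Cacna1i: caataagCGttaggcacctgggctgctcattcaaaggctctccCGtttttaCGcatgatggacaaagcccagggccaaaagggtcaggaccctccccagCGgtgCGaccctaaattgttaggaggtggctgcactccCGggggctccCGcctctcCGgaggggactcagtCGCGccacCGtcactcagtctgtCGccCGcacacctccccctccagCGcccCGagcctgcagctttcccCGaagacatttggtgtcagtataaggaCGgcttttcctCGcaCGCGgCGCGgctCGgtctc
Cacna1b: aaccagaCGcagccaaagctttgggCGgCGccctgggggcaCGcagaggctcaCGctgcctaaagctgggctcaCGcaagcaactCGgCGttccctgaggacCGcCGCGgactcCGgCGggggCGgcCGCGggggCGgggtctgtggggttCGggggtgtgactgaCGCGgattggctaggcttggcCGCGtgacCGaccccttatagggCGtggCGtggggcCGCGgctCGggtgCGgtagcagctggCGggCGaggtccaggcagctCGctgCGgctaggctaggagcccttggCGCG

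The alpha2delta subunits are extracellular proteins that bring calcium channels to the membrane, and Cacna2d1 and Cacna2d2 bind the drug gabapentin. Cacna2d3 had 5 peaks with 88 reads (70.58 to 108.4). The strongest, 1327 bp and 33 reads (chromosome 14, 29722048 to 29723374), began 184 bp upstream of the listed start, and peaks of 10, 17 and 16 reads followed 2.2, 3.7 and 13.6 kb downstream. A further peak of 12 reads lay 790.3 kb from the start, near the other end of this gene of 817833 bp. Cacna2d2 had 63 reads in 3 peaks within 5 kb of its start, the first of 27 reads over the start itself (chromosome 9, 107399680 to 107400781). The single Cacna2d4 peak, of 1576 bp and 27 reads, lay within 2 kb of an annotated end of Lrtm2, a protein-coding gene inside Cacna2d4. Cacna2d1 was unmarked, with the nearest peak 3550.1 kb away.

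Cytoplasmic beta subunits carry the pore to the membrane. Only Cacnb2, the main form of the heart, was marked, by 1 peak of 1178 bp and 23 reads over the first of its 2 listed starts (chromosome 2, 14603764 to 14604941). An annotated end of the long non-coding RNA gene Gm32741 lay within 2 kb of that peak. Cacnb1 of skeletal muscle, Cacnb3 and Cacnb4 were unmarked, and their nearest peaks lay 29.1, 30.4 and 1407.9 kb away. The window of Cacna2d3 (chr14:29721815-29722114, minus strand) is shown as the alpha2delta window overlapped by the peak with the most reads. It held 41 CpGs at 81.3% GC. That peak began 184 bp upstream of the listed start and so covered only the upstream part of the window. That peak held 33 reads and the one over the Cacna2d2 window 27, but within 2 kb of the start Cacna2d2 had 50 reads in all and Cacna2d3 33. The window of Cacnb4 (chr2:52676094-52676393, minus strand) and that of the inner listed start of Cacna1d (chr14:30353437-30353736, minus strand) are shown because their ratios of CpGs observed to those expected from C and G content, 0.96 and 1.18, were the highest among the starts of unmarked channel genes described. They held 40 CpGs at 78.3% GC and 63 CpGs at 87.3% GC. The start of Cacna2d1, also unmarked, held 42 CpGs at 80% GC, with a ratio of 0.92.
Cacna2d3: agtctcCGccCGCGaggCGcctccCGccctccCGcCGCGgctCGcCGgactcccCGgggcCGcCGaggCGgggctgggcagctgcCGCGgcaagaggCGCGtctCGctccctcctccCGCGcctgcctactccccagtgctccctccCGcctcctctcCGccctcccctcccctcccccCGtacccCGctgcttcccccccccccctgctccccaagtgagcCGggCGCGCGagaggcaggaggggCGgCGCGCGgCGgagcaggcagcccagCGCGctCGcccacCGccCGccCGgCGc
Cacnb4: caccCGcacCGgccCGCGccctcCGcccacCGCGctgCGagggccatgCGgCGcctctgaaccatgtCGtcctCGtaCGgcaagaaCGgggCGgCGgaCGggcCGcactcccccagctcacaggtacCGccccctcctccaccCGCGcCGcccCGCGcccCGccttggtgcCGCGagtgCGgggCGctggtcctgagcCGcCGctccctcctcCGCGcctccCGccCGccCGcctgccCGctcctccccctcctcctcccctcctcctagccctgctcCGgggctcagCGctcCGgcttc
Cacna1d: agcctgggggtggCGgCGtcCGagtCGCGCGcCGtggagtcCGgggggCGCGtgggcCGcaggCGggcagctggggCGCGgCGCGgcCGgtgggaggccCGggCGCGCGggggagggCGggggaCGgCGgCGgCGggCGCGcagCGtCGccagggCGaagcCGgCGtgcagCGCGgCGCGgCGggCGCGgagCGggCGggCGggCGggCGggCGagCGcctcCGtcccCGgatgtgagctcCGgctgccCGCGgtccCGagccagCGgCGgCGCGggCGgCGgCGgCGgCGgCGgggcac

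The Cacng genes encode proteins of 2 kinds: Cacng1 and Cacng6 are gamma subunits of calcium channels, and the other 6 encode regulators of AMPA-type glutamate receptors. Of those 6 regulators 3 were marked, as was Cacng6. Cacng6 had a peak of 3197 bp and 65 reads (exact 95% interval 50.17 to 82.85) over its start (chromosome 7, 3422419 to 3425615). An annotated end of the long non-coding RNA gene 3300002P13Rik lay within 2 kb of this peak. Next to Cacng6, Cacng8 had peaks of 41 reads (2349 bp) and 15 reads, 16.0 and 20.8 kb downstream of its listed start. The second lay within 2 kb of the microRNA gene Gm23450. Cacng8 was the only marked gene with a listed start whose peaks all lay more than 2 kb from it. Cacng7 had peaks of 10 and 13 reads within 2 kb of its start and one of 26 reads 259 bp inside its upper end. The peaks of 10 and 13 reads were, like those named at Cacna2d4 and Hcn4, among the 4 of 50 channel gene peaks that also lay within 2 kb of an end of another protein-coding gene. Cacng4 had 1 peak of 24 reads, 253 bp inside its upper annotated end and within 2 kb of the long non-coding RNA gene Gm11650. Unmarked were Cacng1 of skeletal muscle, Cacng2 (stargazin), Cacng3 and Cacng5, with the nearest peak at 76951, 74957, 381322 and 65297 bp.

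Of the pacemaker genes, Hcn4, the main form of the sinoatrial node, had the most reads, 79 in 3 peaks (62.55 to 98.46). A peak of 1955 bp and 49 reads lay over its start (chromosome 9, 58821421 to 58823375) and within 2 kb of an end of the neighbouring gene Rec114. The other Hcn4 peaks, of 13 and 17 reads, lay 5.3 and 36.6 kb downstream. Hcn3 had peaks of 13 and 11 reads inside the gene, more than 3 kb from either end. Hcn2, which is made by sensory neurons and heart, had no peak within 60.9 kb. The start windows of Hcn4 (chr9:58822699-58822998, plus strand; 31 CpGs, 71.7% GC) and Cacng6 (chr7:3424412-3424711, plus strand; 8 CpGs, 52.7% GC) lay under peaks of 49 and 65 reads and differ widely in CpG content.
Hcn4: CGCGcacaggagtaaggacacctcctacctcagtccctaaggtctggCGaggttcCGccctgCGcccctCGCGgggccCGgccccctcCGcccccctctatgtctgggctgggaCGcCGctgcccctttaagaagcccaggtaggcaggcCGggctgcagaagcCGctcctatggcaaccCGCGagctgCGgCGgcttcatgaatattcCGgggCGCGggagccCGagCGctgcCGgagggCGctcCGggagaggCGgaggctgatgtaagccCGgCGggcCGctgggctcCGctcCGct
Cacng6: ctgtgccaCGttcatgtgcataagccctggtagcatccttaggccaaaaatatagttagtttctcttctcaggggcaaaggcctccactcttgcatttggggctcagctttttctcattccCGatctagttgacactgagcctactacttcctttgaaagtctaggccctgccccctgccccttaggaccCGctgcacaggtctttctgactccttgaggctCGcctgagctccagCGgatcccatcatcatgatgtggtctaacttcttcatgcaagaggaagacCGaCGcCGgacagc

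Several channel genes stand next to each other, and 3 such clusters differed in how many of their genes carried the mark. In the neighbouring pairs Scn2b and Scn4b on chromosome 9 and Cacna1c and Cacna2d4 on chromosome 6, not drawn, both genes were marked. In the cluster of Cacng7, Cacng8 and Cacng6 on chromosome 7 (103.6 kb from the first to the last annotated end) all 3 genes were marked, and 6 peaks with 176 reads covered 8.65% of the span. A further peak, of 10 reads, lay 107 bp outside it, in the flank of Cacng7. Among the 6 peaks inside the span, that of 16 reads lay between Cacng8 and Cacng6, outside both genes and their 2 kb flanks. In the cluster of Cacng1, Cacng4 and Cacng5 on chromosome 11 (211.8 kb) only Cacng4 was marked, and 2 peaks with 41 reads covered 0.787%. The Cacng4 peak held 24 of these reads, and the other peak, of 17 reads, lay between Cacng4 and Cacng5 in neither gene. The cluster of Scn3a, Scn2a, Scn1a, Scn9a and Scn7a on chromosome 2 spanned 1327.8 kb and held 2 peaks with 22 reads, covering 0.0753%. One of those was the Scn9a peak, and the other lay between Scn2a and Scn1a in neither gene.

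**Figure D2:**
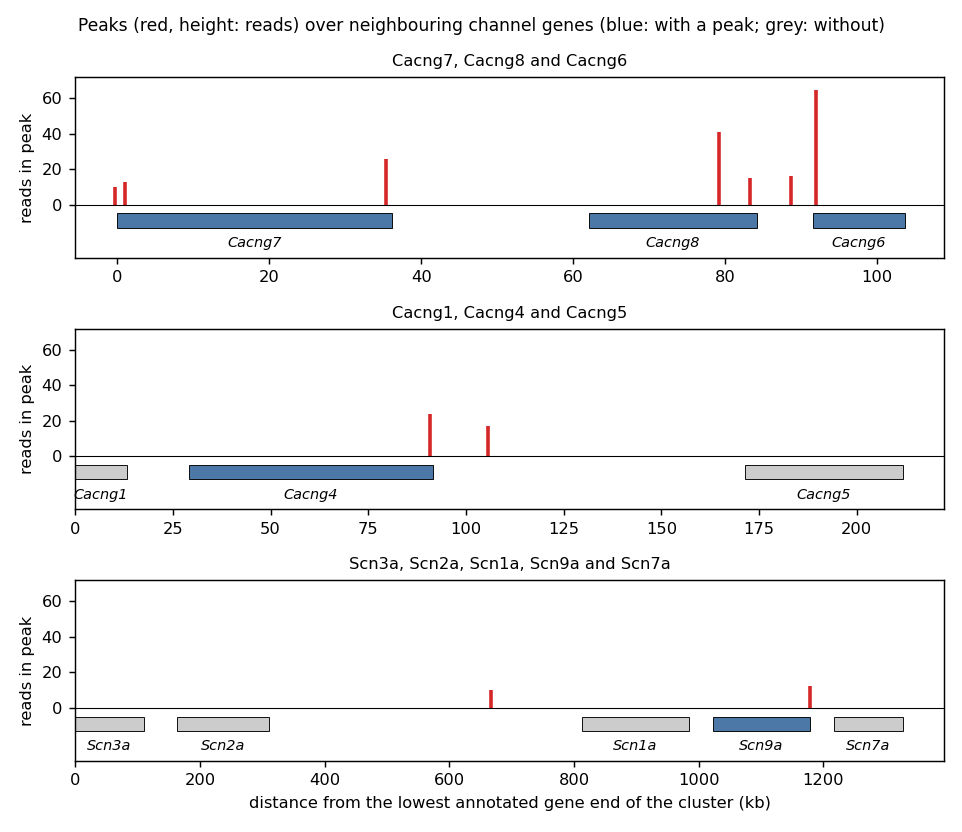
Peaks (red lines, height in reads on the y axis) over 3 clusters of neighbouring channel genes, drawn by distance in kb from the lowest annotated end; blue boxes are genes with a peak and grey boxes genes without. All 3 genes of the top cluster are marked, and the bottom cluster, the longest, has 2 peaks.

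Where a start was listed, most of the reads lay near it. A start was listed in the RefSeq promoter table for 32 of the 44 genes, and 14 of the 32 had a peak within 2 kb of one (43.8%, 26.4 to 62.3), while 7.31% of protein-coding genes with a listed start did. Of the 34 peaks of these genes, 16 lay within 2 kb of a listed start, 10 of them over it, and 18 lay farther away (10 to 41 reads each). The peaks within 2 kb held 537 of the 811 reads (66.2%). By either annotated end, which could be taken for all 44 genes, 19 had a peak within 2 kb (43.2%, 28.3 to 59.0), against 8.59% of all protein-coding genes. Among the peaks farther away, the 41 reads of Cacng8 and the 26 reads of Cacng7 lay 16.0 and 34.0 kb from the nearest listed start.

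**Figure D3:**
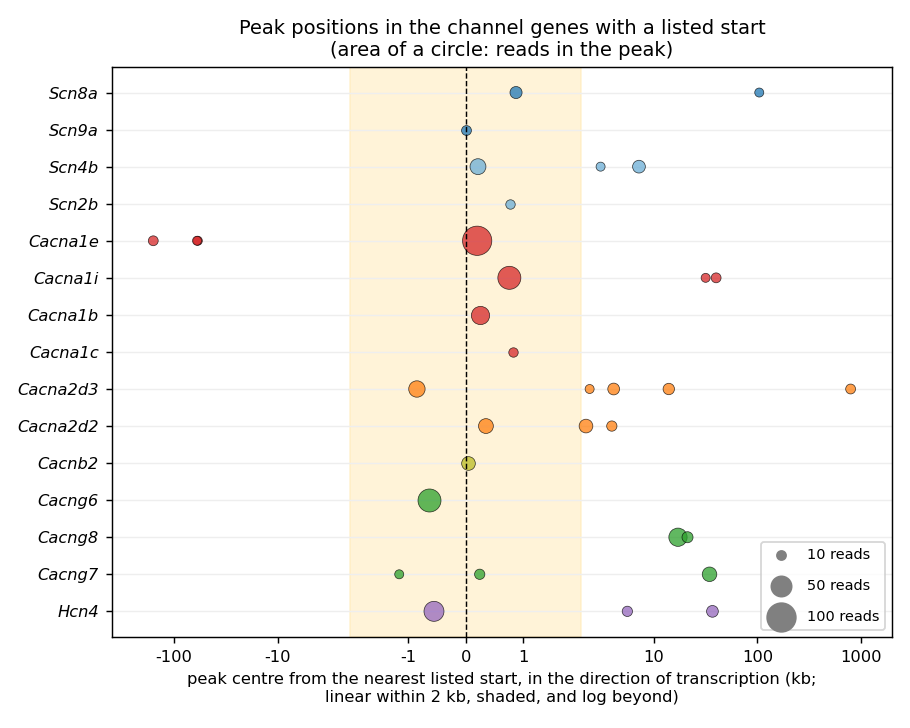
Position of each peak centre relative to the nearest listed start (x axis, kb, linear within 2 kb and logarithmic beyond) in the marked channel genes with a listed start (y axis); the area of a circle gives the reads. The strongest peaks, 105 reads in Cacna1e and 65 reads in both Cacna1i and Cacng6, sit within the shaded 2 kb.

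Channel genes are long, with a median length of 96.6 kb against 17.2 kb for all protein-coding genes, and a long gene has more room to meet a peak. The share marked was therefore also taken within classes of length. Under 20 kb, 4 of 8 channel genes were marked (50%), against 8.33% of protein-coding genes of that length. From 20 to 100 kb the values were 7 of 15 (46.7%) against 10.3%, and from 100 to 300 kb they were 6 of 13 (46.2%) against 17.6%. Over 300 kb they were 6 of 8 (75%, exact 95% interval 34.9 to 96.8) against 36.8%. The channel genes' share was higher in each class, and in the longest class the interval of the channel genes included the share of all genes. Marked channel genes had a median length of 111.1 kb and unmarked ones of 71.7 kb.

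**Figure D4:**
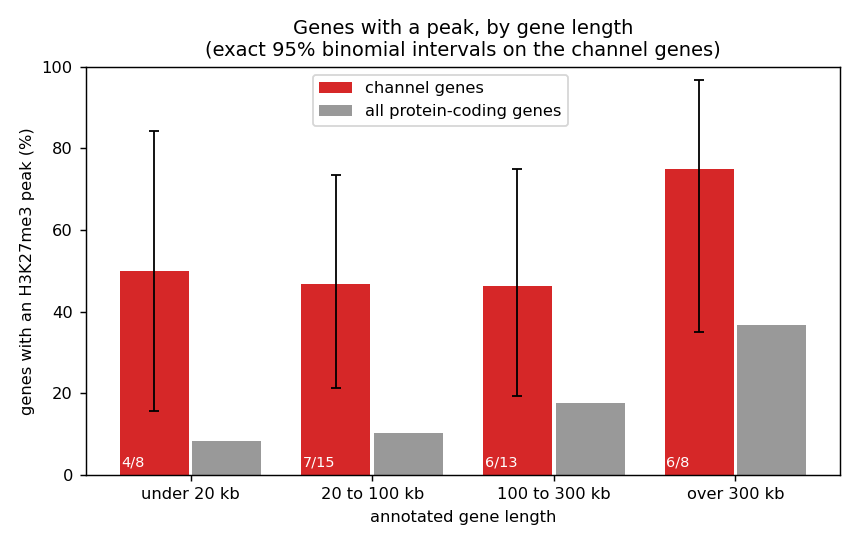
Share of genes with a peak (y axis, percent) among channel genes (red, exact 95% binomial intervals, marked genes of all genes printed in the bar) and all protein-coding genes (grey) in 4 classes of gene length (x axis). The channel genes lie between 46.2% and 75%, and all protein-coding genes between 8.33% and 36.8%.

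Starts of channel genes with a peak had more CpG at the median than those without. A CpG observed over expected ratio compares the CpGs in the 300 bp window with the number that its C and G content would give. The median ratio was 0.80 over the 14 listed starts with a peak within 2 kb and 0.37 over the 29 without. Over all protein-coding genes the medians were 0.65 with a peak and 0.55 without. Of 19 CpG-rich windows of channel genes (GC at least 50% and a ratio of at least 0.6), 10 had a peak within 2 kb (52.6%, 28.9 to 75.6), against 8.66% of all such windows. Of the other 24 windows 4 did (16.7%, 4.74 to 37.4), against 5.79%. The 4 were those of Cacna1e (ratio 0.48), Cacng6 (0.40), Scn9a (0.37) and Scn2b (0.20). CpG content did not separate the groups, because Cacna1d (1.18), Cacnb4 (0.96) and Cacna2d1 (0.92) had CpG-rich windows and no peak. These are listed starts of a few gene families, some genes have several, and no test was made.

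**Figure D5:**
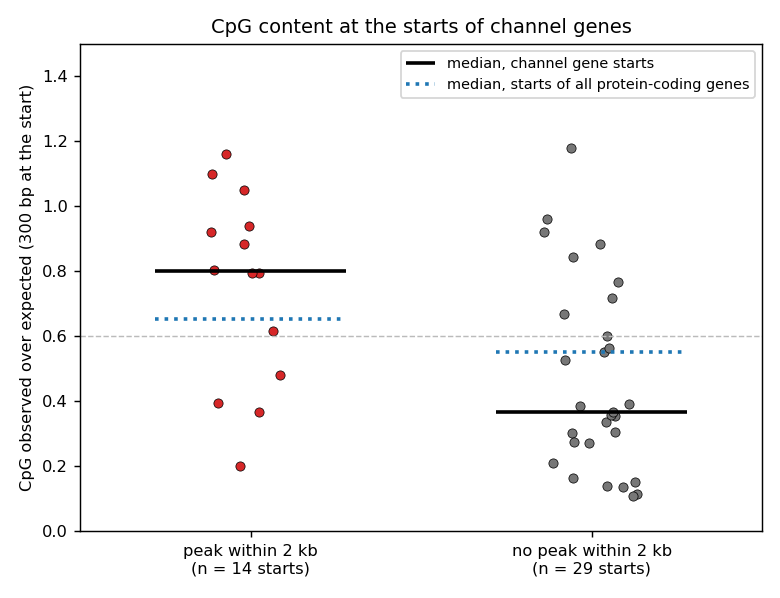
CpG observed over expected in the 300 bp window (y axis) at each listed start of a channel gene, with a peak within 2 kb (red) or without (grey); black bars are medians over these starts and dotted blue bars medians over the starts of all protein-coding genes. The channel gene medians are 0.80 with a peak and 0.37 without, and the dashed line marks 0.6.

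Short motifs were looked up in the same windows on both strands. The TATA box letters TATAAA were in 2 of 43 channel gene windows (4.65%), those of Cacna1d and Scn2a, against 12.6% of all windows. Cores of both parts of the RE1 element, the site of the neuronal gene repressor REST, were also searched. CAGCACC was in 0 of 43 windows against 7.24% of all windows, and GGACAGC was in 2 (4.65%), those of Cacnb1 and Cacng6, against 6.88%. No motif contains another, and a match describes the sequence only.

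The median channel gene peak was 672 bp wide with 15.5 reads, against 643 bp and 14 reads over all peaks, and both medians lay near the shortest width, which 34.0% of channel gene peaks and 41.6% of all peaks had. The median density was 22.0 reads per kb of peak in channel genes and 21.0 over all peaks. Of the 50 channel gene peaks, 4 exceeded 2 kb (8.0%), against 14.6% of all peaks. None of the 50 exceeded 5 kb, and only 204 of all 6018 peaks did. Depth limits the weaker genes: 8 of the 23 marked genes had no peak of 20 reads or more, and a peak of 10 reads has an exact 95% interval of 4.8 to 18.4. With peaks of at least 20 reads, 15 of the 44 channel genes were marked, against 5.46% of all protein-coding genes. A gene without a peak had no region that reached the list, and a weaker mark there could not be detected at this depth.

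A list of other genes was set beside the channel genes, with no test of the difference. Some of them work with these channels and others encode separate ion channels. The list held ankyrins, nodal adhesion molecules, a spectrin, intracellular Fgf proteins and channel adaptors. It also held Nalcn, Unc79 and Unc80, cyclic nucleotide-gated, sperm and Tpcn channels, and calcium release channels. Of its 40 genes, 14 were marked by the gene and 2 kb rule (35.0%, 20.6 to 51.7). By the same rule 52.3% of the channel genes and 10.5% of all protein-coding genes were marked. In the length classes under 20 kb, 20 to 100 kb, 100 to 300 kb and over 300 kb, 36.4%, 33.3%, 30% and 40% of the list were marked. The shares of all protein-coding genes were 8.33%, 10.3%, 17.6% and 36.8%. The most reads were at Catsper3, a sperm calcium channel, with 254 reads in 2 peaks that both lay within 2 kb of an end of the neighbouring gene Pitx1. Next came Sptbn4, the spectrin of nodes and axon initial segments, with 247 reads in 10 peaks, none within 2 kb of an annotated end. Ryr1, the calcium release channel of skeletal muscle, had 135 reads, Cntn2 of the juxtaparanode 57 and Fgf12 46. Ank3, which anchors sodium channels at nodes, and Nrcam had no peak, both named after their values were seen. The sodium, calcium and pacemaker channel genes, with 52.3% marked and a median of 28 reads among the marked ones, stood beside 40 voltage-gated potassium channel genes, of which 23 were marked (57.5%, 40.9 to 73.0) with a median of 36 reads. The intervals of the 2 shares overlapped.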

How the data were processed

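Chromatin of sciatic nerve was fixed for 10 min in 1% formaldehyde and sheared to 0.5 to 2 kb on average, per the labels' protocols. The submitters' processing notes name Bowtie and mm10. How the peaks were called, at which threshold and whether against the input, is, like the version of Bowtie, not given in the sources used here. What the authors deposited was 1 peak list with a score per peak, with no definition in the labels or the file. In 6013 of 6018 peaks (99.92%) the score was, to within 0.05, a whole number times 2.57349, so each score was divided by that step and read as a number of reads; this is an inference from the values. The total depth of the ChIP library is not given, and no value of the input library was analysed here.

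Genes and starts came from RefSeq tables of GRCm38.p6, of which 17492 protein-coding genes had a listed start (21263 starts). A peak counted for a gene when at least 1 bp lay in the gene or its 2 kb flanks. Reads are those of whole peaks. Shares have exact Clopper-Pearson and reads exact Poisson 95% intervals. Counts cover every gene taken by the symbol rule unless given for those described; some genes are not reported here. Promoters printed are the 6 with most reads in peaks over the window and those of the 2 unmarked genes with the highest CpG observed over expected ratio. The members, lists and settings were chosen with earlier results of these data known. The overlap count was tested on simulated data. Other flanks, windows, peak thresholds, overlaps and chromosome sets were tried. Work was done in Python 3.11.15 with pandas 2.3.3, numpy 2.4.6 and scipy 1.17.1.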

Additional observations from a re-analysis of the deposited data

How the results depend on the processing

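With peaks of at least 20 reads, 15 channel genes were marked instead of 23, and 9 had such a peak at a listed start instead of 14; the shares of all protein-coding genes also fell, to 5.46% and 4.09%. With flanks of 5 kb the peaks of channel genes held 1191 reads instead of 1115, because more peaks enter the wider window. Under the other settings the count of marked genes was 18 to 24 (18 with peaks whose score reached the median, 36.0, 19 with the annotated ends alone, 22 without peaks near the end of another protein-coding gene), and that of marked starts 10 to 14. Reads came to 1105 with no flank. By family, over all genes of the rule, 59 of 63 counts stayed within 1.5 times the value reported, and the other 4 were lower, all with stronger peaks only. No paired analysis was possible because there was 1 ChIP library and 1 input library and no test. The planned share of reads by the width inside the window changed nothing, since every counted peak lay wholly inside. Single genes with 10 to 12 reads are limited by depth.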
